A study of Mus musculus with 5 samples.

Results

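Genes of aspartate and asparagine metabolism were examined in 4T1 cancer cells that had colonized the lung. 4T1 is a mouse mammary carcinoma line, and the injected cells carried the reporter CD90.1, an allele of Thy1. The genes were taken by name as the 10 members Got1, Got2, Slc25a12, Slc25a13, Slc1a3, Asns, Ass1, Asl, Adsl and Cad, of 23771 genes in the deposited table of cancer cells. The rule that picks them uses names and no measured value, but the members were chosen with earlier results of these data known.

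The table compares 2 libraries of day 16 after cancer cell injection. All mice were female BALB/c, were first injected at 6 weeks of age and were 11 weeks old at collection, and all received 25000 CD90.1-expressing 4T1 cells by vein. Before the cancer cells, 1 group had been given control medium (CM) and the other tumor-secreted factors (TSF), collected from medium in which pieces of mammary tumors had been kept (4T1 or EMT6.5 in the labels, 4T1 in the study's account of these libraries), 3 times per week for 3 weeks. The lung cells of 3 mice were pooled into each library, which makes each group 1 sample. The other 3 libraries of the series, from day 11, have no values per gene here.

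Aspartate is made from oxaloacetate by transamination with glutamate. The cytosolic enzyme is encoded by Got1 and the mitochondrial one by Got2. Aspartate made in mitochondria reaches the cytosol through the carriers Slc25a12 and Slc25a13, and together with malate dehydrogenases these proteins form the malate-aspartate shuttle, which carries reducing equivalents into mitochondria. In the cytosol aspartate is used for asparagine by Asns, for argininosuccinate and arginine by Ass1 and Asl, for purine nucleotides along a route that includes Adsl, and for pyrimidine rings by Cad. Proliferating cells need aspartate for nucleotides, and most cells take up little of it because few of them carry an acidic amino acid transporter such as Slc1a3.

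The CM library held 29 cancer cells with a median of 27679 UMIs (unique molecular identifiers, which count captured transcripts), and the TSF library held 139 with a median of 26615. Of the CM cells 27.6% had under 10000 UMIs, against 10.1% of the TSF cells. The shallowest cell had 973 UMIs in CM and 909 in TSF. The level of a gene is given as the mean over cells of UMIs per 10000 UMIs of a cell (CP10k). At the median depth, 1 UMI in 1 cell adds 0.0125 CP10k to the CM mean and 0.00270 CP10k to the TSF mean. In the shallowest cell, 1 UMI adds 0.354 CP10k to the CM mean and 0.0791 CP10k to the TSF mean. With 1 library a group no difference between groups was tested, and the files used here give no spread over cells for the means. Shares of cells with a UMI are given with exact Clopper-Pearson 95% intervals, in parentheses after the share; they cover the counting of cells and leave out how mice differ.

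The cell label was checked first. Of 9 cancer markers, Krt8, an epithelial keratin, was seen in 137 of 139 TSF cells and in all 29 CM cells. Krt18, its partner keratin, was seen in 138 and 28 cells. Krt7, another keratin, was seen in 61.2% of TSF cells and 62.1% of CM cells, with 1.76 and 1.45 CP10k. Wfdc2 was seen in 100% and 96.6% of cells. The mean of Wfdc2 and the other cancer markers were less alike between the libraries, as given below. The 12 leukocyte markers were seen in at most 7 TSF cells and 1 CM cell each, with a summed level of 1.04 CP10k in TSF and 0.00958 CP10k in CM. S100a9 and S100a8, calcium-binding proteins of neutrophils, made up 0.685 and 0.300 CP10k of the TSF sum, from 4 and 2 cells. Lyz2, Csf1r, Adgre1, Nkg7 and Cd3d were at 0 in both libraries. The lung epithelial markers summed to 0.127 CP10k in TSF and 0.476 in CM, and the endothelial ones to 0.198 and 0.0685. The 7 mesenchymal markers summed to 1.06 and 0.498 CP10k. Pdgfra, a growth factor receptor, was nearly level at 0.426 and 0.407 CP10k. Dcn, a matrix proteoglycan, had 0.526 and 0.0907 CP10k, in 16 TSF cells (11.5%) and 2 CM cells (6.90%).

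The cancer cells were not of the same make-up in the 2 libraries. The authors' clustering put them in 2 fine clusters. Cluster 120 held 61.2% of the TSF cells (85 cells, 52.5 to 69.3%) and 20.7% of the CM cells (6 cells, 7.99 to 39.7%), and cluster 131 held the others. Epcam, an epithelial adhesion protein, was seen in 95 TSF cells (68.3%) and 8 CM cells (27.6%), with 1.28 and 0.195 CP10k. CD90.1 was seen in 48 TSF cells (34.5%) and 2 CM cells (6.90%). Cdh1 was seen in 35 TSF cells (25.2%) and 2 CM cells (6.90%), and Lcn2 in 92 (66.2%) and 10 (34.5%). Wfdc2 had 29.6 CP10k in TSF and 9.84 in CM, and Spp1 had 59.8 and 30.6. Of the 9 cancer markers, 8 had a higher mean in TSF and 1, Krt18, a lower one, with 15.8 and 18.3 CP10k. Among all genes in at least 10% of cells, 40.3% had a higher mean in TSF. These differences, and the larger share of shallow cells in CM, go with the treatment in every comparison below, and their part in the results was not tested.

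Of the 10 members, 9 were seen in at least 10% of TSF cells or of CM cells and were compared, and Slc1a3 was not. On the log2(mean CP10k + 1) scale, 0 of the 9 members were at least 1.5-fold higher in TSF, and 0 were at least 1.5-fold lower. Of all 10201 genes in at least 10% of cells, 0.755% were higher and 1.95% were lower by that rule. The median log2 ratio of TSF over CM was 0.00698 over the 9 members and -0.03 over all these genes. The added 1 understates changes of genes at these levels, since the members' means lay between 0.0460 and 0.832 CP10k. By the plain ratio of means, 3 members (Asl, Cad and Ass1) were at least 1.5-fold higher in TSF and 2 (Adsl and Got1) at least 1.5-fold lower. By that ratio 15.4% of genes were higher and 29.9% lower. Each of these 5 genes is described below, where values of Got1, Asl and Adsl are set against the weight of single UMIs. The means of Ass1 and Cad differed by 0.133 and 0.185 CP10k, both less than 1 UMI in the shallowest CM cell would add (0.354). Their CM means, 0.244 and 0.132 CP10k, were themselves below that value. That cell is an extreme, since 1 UMI at the median depth adds 0.0125 CP10k to the CM mean.

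**Figure D1:**
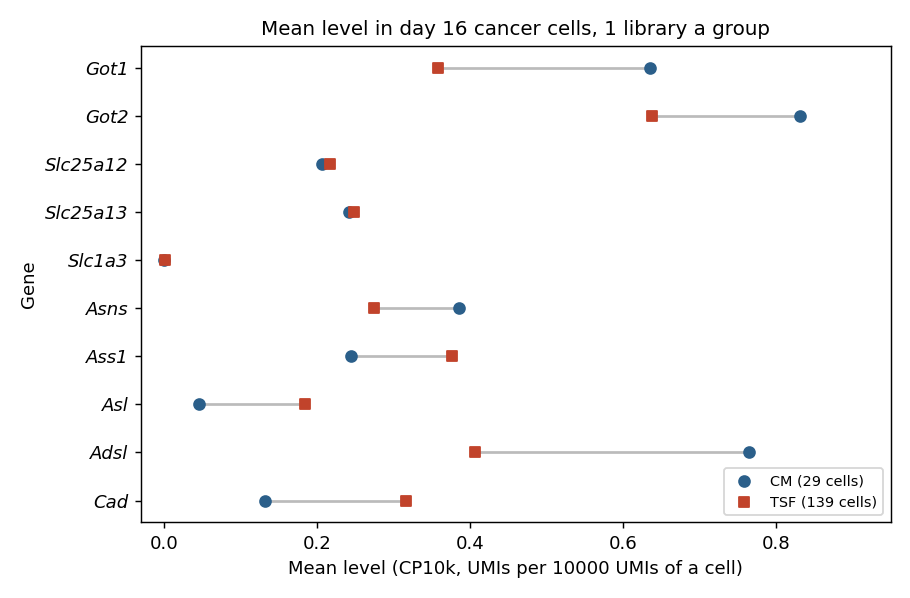
Mean level of the 10 genes in day 16 cancer cells, in CP10k on the horizontal axis, with circles for the CM library (29 cells) and squares for the TSF library (139 cells), joined by a grey line. Squares lie to the right for Ass1, Asl and Cad and to the left for Got1, Got2, Asns and Adsl, and both symbols nearly coincide for Slc25a12, Slc25a13 and Slc1a3; there is 1 library a group, so no error bar is drawn.

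The aminotransferases had lower means in TSF at the same share of cells. Got1 (ENSMUSG00000025190, GRCm38 chromosome 19, 43499752 to 43524605, minus strand) had a mean of 0.358 CP10k in TSF and 0.635 in CM, a ratio of 0.563 and a log2 ratio of -0.27 with 1 added. Its UMIs were present in 81 of 139 TSF cells, or 58.3% (49.6 to 66.6%), and in 17 of 29 CM cells, or 58.6% (38.9 to 76.5%). The shares were nearly equal, so the difference lay in the mean level per cell with a UMI, 0.614 CP10k in TSF and 1.08 in CM. The means differed by 0.278 CP10k, which is less than the 0.354 that 1 UMI in the shallowest CM cell would add.

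Got2 (ENSMUSG00000031672, chromosome 8, 95864134 to 95888547, minus strand) showed the same split with a smaller difference. Its mean was 0.638 CP10k in TSF and 0.832 in CM, a ratio of 0.767. With 101 of 139 TSF cells, or 72.7% (64.5 to 79.9%), it was the most widely seen member in TSF, and in CM it was found in 21 of 29 cells, or 72.4% (52.8 to 87.3%). The level per cell with a UMI was 0.878 CP10k in TSF and 1.15 in CM.

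The mitochondrial aspartate carriers were nearly level between the libraries in both measures. Slc25a12 (ENSMUSG00000027010, chromosome 2, 71271063 to 71367749, minus strand), also called aralar, had a mean of 0.217 CP10k in TSF and 0.207 in CM, and was found in 50 of 139 TSF cells, or 36.0% (28.0 to 44.5%), and 11 of 29 CM cells, or 37.9% (20.7 to 57.7%). Slc25a13 (ENSMUSG00000015112, chromosome 6, 6041218 to 6217173, minus strand), also called citrin, had 0.248 CP10k in TSF and 0.242 in CM. Citrin UMIs were found in 59 of 139 TSF cells, or 42.4% (34.1 to 51.1%), and 12 of 29 CM cells, or 41.4% (23.5 to 61.1%). The CM intervals are wide, so much larger differences in share than those observed were not detectable with 29 cells.

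Slc1a3 (ENSMUSG00000005360, chromosome 15, 8634124 to 8710764, minus strand), a plasma membrane carrier of glutamate and aspartate also known as GLAST, was nearly absent from the counts. It was seen in 1 of 139 TSF cells (0.719%, 0.0182 to 3.94%). In CM it was seen in 0 of 29 cells, with an exact interval of 0 to 11.9%, and 3 cells of 29, the limit taken for a count of 0, would be a share of 10.3%. These limits are on cells with a UMI and not on cells that express the gene.

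Asns, which makes asparagine from aspartate and glutamine, differed little. Asns (ENSMUSG00000029752, chromosome 6, 7675169 to 7693254, minus strand) had a mean of 0.275 CP10k in TSF and 0.385 in CM, a ratio of 0.714 and a log2 ratio of -0.12 with 1 added. Cells with a UMI made up 42 of 139 TSF cells, or 30.2% (22.7 to 38.6%), and 10 of 29 CM cells, or 34.5% (17.9 to 54.3%). The level per cell with a UMI was 0.910 CP10k in TSF and 1.12 in CM, so both the share and the level were lower in TSF, each by less than 1.5-fold.

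Ass1 and Asl, which act one after the other, were seen in a larger share of TSF cells. Ass1 joins citrulline and aspartate to argininosuccinate, and Asl splits that into arginine and fumarate. Ass1 (ENSMUSG00000076441, chromosome 2, 31470207 to 31520672, plus strand) was found in 55 of 139 TSF cells, or 39.6% (31.4 to 48.2%), against 5 of 29 CM cells, or 17.2% (5.85 to 35.8%). Its mean was 0.377 CP10k in TSF and 0.244 in CM, a ratio of 1.54. The level per cell with a UMI went the other way, 0.953 CP10k in TSF and 1.42 in CM, so the direction for Ass1 depended on the measure.

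Asl (ENSMUSG00000025533, chromosome 5, 130011258 to 130029247, minus strand) had the largest ratio of means among the members. Its mean was 0.184 CP10k in TSF and 0.0460 in CM, a ratio of 4.01. Detection covered 48 of 139 TSF cells, or 34.5% (26.7 to 43.1%), against 5 of 29 CM cells, or 17.2% (5.85 to 35.8%). The level per cell with a UMI was 0.534 CP10k in TSF and 0.267 in CM. The CM value is below the 0.361 CP10k that 1 UMI is worth in a CM cell of median depth, and the CM mean of Asl rests on 5 cells. Because of the added 1, its log2 ratio was only 0.18.

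Adsl was lower in TSF in both measures. It encodes adenylosuccinate lyase, which releases fumarate at 2 steps of purine nucleotide synthesis, each after aspartate has donated a nitrogen. Adsl (ENSMUSG00000022407, chromosome 15, 80948490 to 80970946, plus strand) had a mean of 0.407 CP10k in TSF and 0.765 in CM, a ratio of 0.532 and a log2 ratio of -0.33 with 1 added. UMIs were found in 86 of 139 TSF cells, or 61.9% (53.3 to 70.0%), against 24 of 29 CM cells, or 82.8% (64.2 to 94.2%). The level per cell with a UMI was 0.657 CP10k in TSF and 0.924 in CM. The means differed by 0.358 CP10k, barely more than the 0.354 that 1 UMI in the shallowest CM cell would add. Differences of the other compared members were below 0.354. That cell is an extreme, since 1 UMI at the median depth adds 0.0125 CP10k to the CM mean. Being past this line therefore does not set Adsl apart from the other members.

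Cad was higher in TSF in both measures. It encodes the protein that carries out the first 3 reactions of pyrimidine synthesis, among them the joining of aspartate to carbamoyl phosphate. Cad (ENSMUSG00000013629, chromosome 5, 31054780 to 31078479, plus strand) had a mean of 0.317 CP10k in TSF and 0.132 in CM, a ratio of 2.40 and a log2 ratio of 0.22 with 1 added. Cells with a Cad UMI were 61 of 139 TSF cells, or 43.9% (35.5 to 52.5%), against 7 of 29 CM cells, or 24.1% (10.3 to 43.5%). The level per cell with a UMI was 0.721 CP10k in TSF and 0.547 in CM.

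The intervals of the TSF and CM shares overlapped for all 9 compared members. Overlap was not counted over all genes, so it cannot be read as particular to the members. The widest gaps were 22.3 percentage points higher in TSF for Ass1, 19.7 points higher for Cad, 17.3 points higher for Asl and, in the other direction, a TSF minus CM difference of -20.9 points for Adsl. For the other 5 compared members the gap was between -4.27 points (Asns) and 1.07 points (Slc25a13). The median difference in share was 0.248 points over the 9 compared members and -0.149 points over all genes compared.

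**Figure D2:**
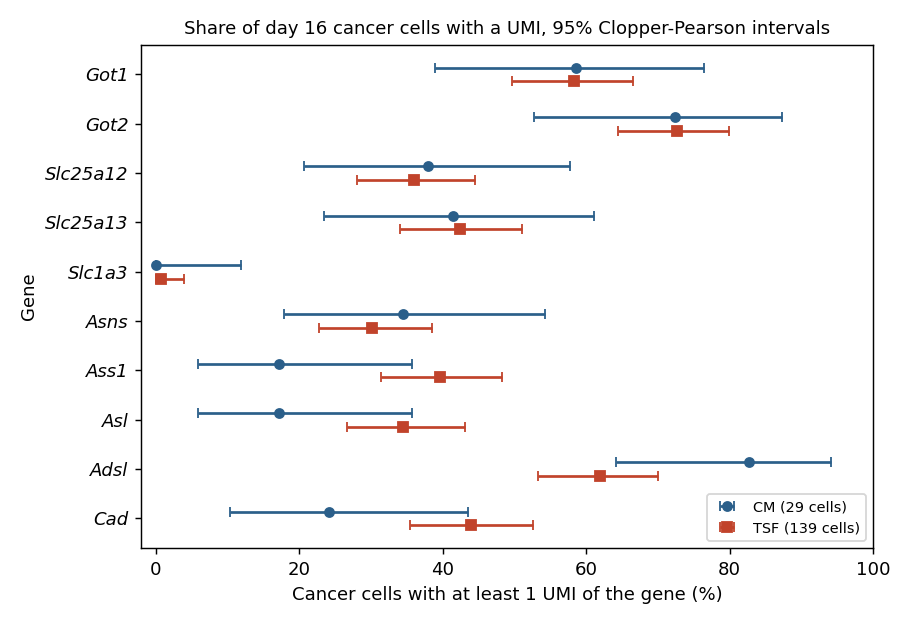
Percent of day 16 cancer cells with at least 1 UMI of each gene, with circles for CM (29 cells) and squares for TSF (139 cells), and bars for exact 95% Clopper-Pearson intervals, which cover counting error only. The bars of the 2 libraries overlap for each of these genes, with the points farthest apart for Ass1, Adsl, Cad and Asl. Overlap was not counted over all genes.

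A mean is the product of the share of cells with a UMI and the level in those cells, and the members divided by which of the 2 differed. For Asl the share ratio was 2.00 and the ratio of levels per cell with a UMI was also 2.00. For Cad these ratios were 1.82 and 1.32. For Ass1 they were 2.29 and 0.672, in opposite directions. Got1 had a share ratio of 0.994 and a level ratio of 0.566, and Got2 had 1.00 and 0.764, so neither aminotransferase differed in share. By the share alone, Ass1, Asl and Cad were at least 1.5-fold higher in TSF and 0 members were lower, where 10.7% of genes were higher and 12.7% lower. By the level per cell with a UMI, Asl was at least 1.5-fold higher and Got1 lower, where 7.07% of genes were higher and 19.4% lower. Adsl was below 1 in both, with 0.748 and 0.711, and so was Asns, with 0.876 and 0.815. The carriers stayed near 1, with 0.948 and 1.10 for Slc25a12 and 1.03 and 0.999 for Slc25a13.

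**Figure D3:**
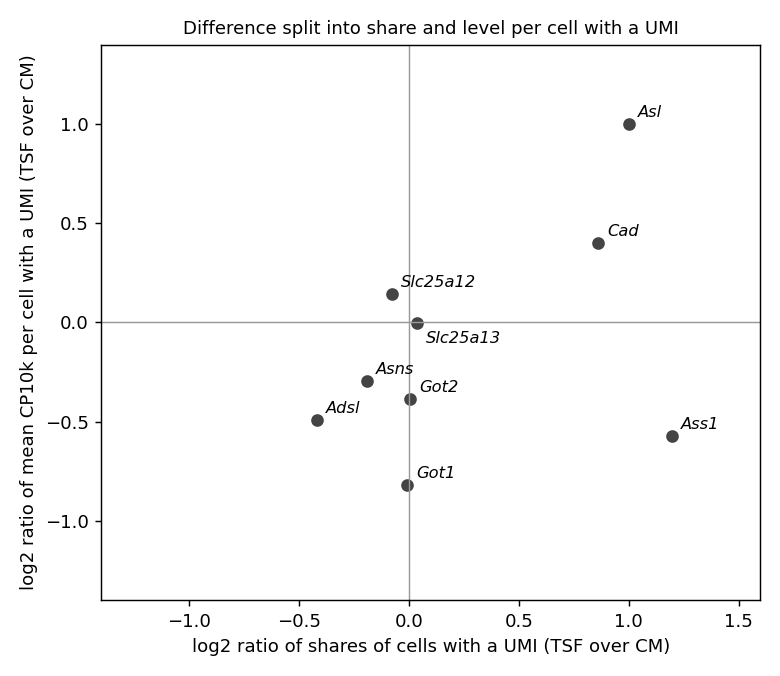
Each of the 9 compared genes by the log2 ratio (TSF over CM) of its share of cells with a UMI, horizontal axis, and of its mean CP10k per cell with a UMI, vertical axis, with grey lines at 0. Asl and Cad lie at the upper right, Ass1 at the lower right, Got1 and Got2 below the centre, and Adsl and Asns at the lower left.

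Lists of related genes were then taken from textbook knowledge. Of the 61 other genes compared on the 9 lists, 0 were at least 1.5-fold higher in TSF and 4 were at least 1.5-fold lower, namely Adss, Atf4, Slc3a2 and Slc7a5, where 0.755% of all genes were higher and 1.95% lower. Judged by shares instead, 0 of these 4 genes were lower by 1.5-fold. All other genes named from the lists were chosen after their values were seen. In the list of the malate-aspartate and glycerol phosphate shuttles, 0 of 9 genes compared passed in either direction, and the median log2 ratio was 0.01. Mdh2, the mitochondrial malate dehydrogenase, had 3.73 CP10k in TSF and 2.82 in CM. Mdh1, its cytosolic counterpart, had 1.93 and 1.87, and Slc25a11, the malate carrier, had 0.619 and 0.572. The ratio of means was 1.32 for Mdh2, 1.03 for Mdh1 and 1.08 for Slc25a11, so Mdh1 and Slc25a11 were nearly level.

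In the list for the supply of glutamate, glutamine and oxaloacetate, 0 of 7 genes passed, and all 7 had a log2 ratio below 0, with a median of -0.13. Of all genes compared, 59.7% were below 0. Glud1, which interconverts glutamate and oxoglutarate, had 1.07 CP10k in TSF and 1.93 in CM, at percentile 2.84 of all genes compared.

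Of the 7 SLC1 carriers, 4 (Slc1a1, Slc1a2, Slc1a6 and Slc1a7) were seen in no cancer cell. Together with Slc1a3, each carrier of acidic amino acids in this family was thus seen in at most 1 cell. The neutral amino acid carrier Slc1a5, which brings in glutamine and asparagine, was seen in 66 TSF cells (47.5%) and 16 CM cells (55.2%). Its mean was 0.284 CP10k in TSF and 0.493 in CM. Slc1a4 was seen in 29 TSF cells (20.9%) and 7 CM cells (24.1%).

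Among asparagine genes, 0 of 4 passed. Nars, which charges the asparagine tRNA, had 1.15 CP10k in TSF and 2.10 in CM, and Dars, which charges the aspartate tRNA, had 0.485 and 0.879. Of these 4, 1 had a log2 ratio above 0 and 3 below. Aspg, an asparaginase, was seen in no cell. Asrgl1, an asparaginase-like enzyme, was the gene above 0. It was seen in 15 TSF cells (10.8%) and 1 CM cell (3.45%), with 0.0518 CP10k in TSF and 0.0106 in CM. That CM value comes from 1 cell. Of the 13 genes for other uses of aspartate, 9 were seen in no cancer cell, among them Aspa, Nat8l and Gad1.

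In the list for the urea cycle and arginine, 0 of 5 genes passed. Cps1, Otc and Arg1, which with Ass1 and Asl make up the urea cycle of the liver, were seen in no cancer cell. Arg2, the mitochondrial arginase, was seen in 12 TSF cells (8.63%) and 1 CM cell (3.45%). Nos2, the inducible nitric oxide synthase, makes citrulline from arginine, which Ass1 and Asl can turn back into arginine. It was found in 25 of 139 TSF cells (18.0%, 12.0 to 25.4%) and 1 of 29 CM cells (3.45%, 0.0873 to 17.8%). Its mean was 0.266 CP10k in TSF and 0.0100 in CM, and the CM value comes from 1 cell.

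In the purine list 0 of 14 genes were higher and 1 was lower, beside 0.755% and 1.95% of all genes. Its median log2 ratio was -0.10. The lower gene was Adss, adenylosuccinate synthetase, which joins aspartate to inosine monophosphate just before the step of Adsl. Adss had 1.23 CP10k in TSF and 2.84 in CM, a ratio of 0.435 and a log2 ratio of -0.78, at percentile 1.02 of all genes compared. Its share was 82.0% in TSF (114 cells, 74.6 to 88.0%) and 93.1% in CM (27 cells, 77.2 to 99.2%). Paics, which uses aspartate at the earlier step before Adsl, did not share this and had 2.00 CP10k in TSF and 1.78 in CM. Adssl1, the other adenylosuccinate synthetase gene, also had a higher mean in TSF, with 0.0966 CP10k against 0.0567 in CM. It was seen in 29 TSF cells (20.9%) and 4 CM cells (13.8%). In the pyrimidine list 0 of 9 passed, with a median of 0.02. Dhodh and Umps, which follow Cad in the pathway, had 0.0783 and 0.328 CP10k in TSF and 0.0782 and 0.297 in CM, so the ratio of Cad was not seen in the next enzymes. Tyms, which makes thymidylate, had 0.835 and 0.575 CP10k.

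**Figure D4:**
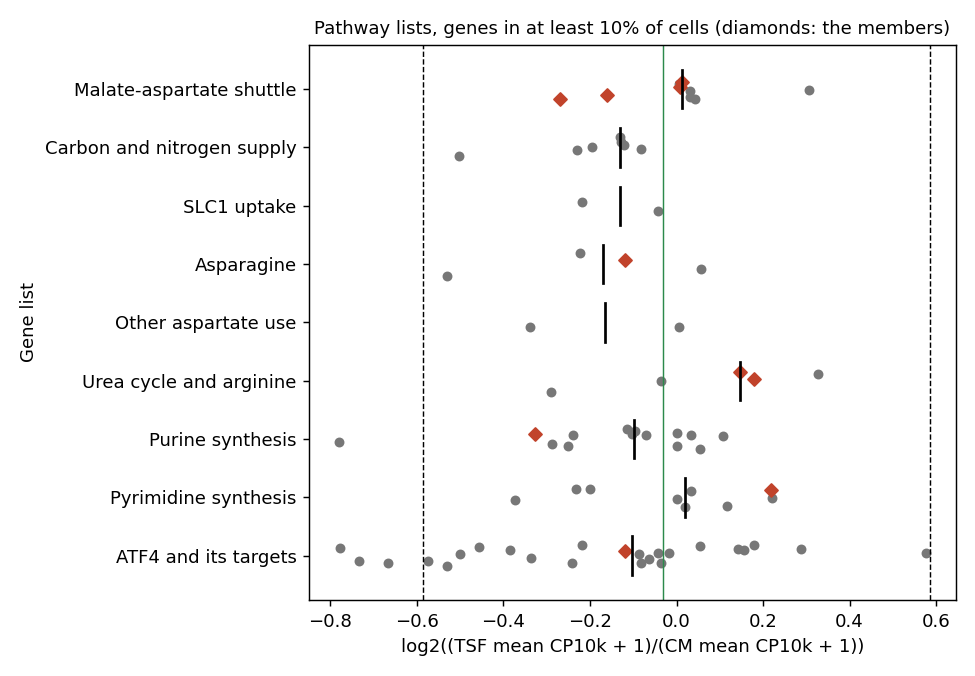
Log2((TSF mean CP10k + 1)/(CM mean CP10k + 1)) of genes in at least 10% of cells, by list, with red diamonds for members, grey dots for other genes (spread vertically only to separate them), black bars for list medians, dashed lines at 1.5-fold and a green line at the median of all 10201 genes. Beyond the dashed lines lie 1 purine gene and 3 genes of the ATF4 list, all lower in TSF.

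Asns is a standard target of ATF4, a transcription factor made when amino acids are short or the endoplasmic reticulum is stressed. In a list of 28 genes, Atf4 and genes it is known to induce, 24 could be compared, of which 0 were higher and 3 were lower, with a median log2 ratio of -0.10, beside 1.95% lower among all genes. Judged by shares, 0 of the list were at least 1.5-fold lower and 1 was higher, and the median log2 ratio of shares was 0.00395. Atf4 itself had 0.980 CP10k in TSF and 2.30 in CM, a ratio of 0.427. It was seen in 107 TSF cells (77.0%) and 26 CM cells (89.7%). Slc3a2 and Slc7a5, the 2 chains of a carrier of large neutral amino acids, had ratios of means of 0.384 and 0.305. Their shares were nearly level, 71.2% in TSF and 72.4% in CM for Slc3a2 and 42.4% and 41.4% for Slc7a5. Ddit3 was just inside the line, with 0.233 CP10k in TSF, 0.837 in CM and a log2 ratio of -0.57. Nupr1 was just inside it in the other direction, with 4.35 and 2.58 CP10k and a log2 ratio of 0.58. Asns, at percentile 27.3 of all genes compared, lay much closer to the middle of all genes than Atf4, at percentile 1.15.

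The known element for ATF4 at Asns was looked for in promoter windows of RefSeq (GRCm38.p6), which run from 250 bases before to 50 after a gene's start. Windows were found for 9 of the 10 members (not Asl). Windows on a chromosome that holds no member were left out of the search and of all shares below. The letters TGATGNAA, where N is any base, were searched on both strands. They were found for 2 members, Asns and Got1, for 4.51% of the 27025 genes searched and for 2.52% of the genes compared here. Both matches are shown with 10 bases on each side, together with that of Chac1, a gene of the ATF4 list, to let the core be compared. Capitals mark the 8 matched bases, and each sequence is written along its gene's strand.
Asns: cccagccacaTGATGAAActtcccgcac
Got1: attgcattggTTGCATCAtacaagcctc
Chac1: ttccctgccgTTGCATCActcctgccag
The Asns stretch is chr6:7693215-7693242 on the minus strand, with 15 bases between the match and the RefSeq start, and it lies inside the longer Asns gene of GENCODE M21. The Got1 stretch is chr19:43524690-43524717 on the minus strand, with 94 bases between the match and the start, and holds the letters in the opposite orientation, as does the Chac1 stretch at chr2:119351039-119351066 on the plus strand. Both members with the letters had lower means in TSF, and so had Adsl and Got2, which have windows without them. In the ATF4 list, 8 of 23 genes with a window held the letters, a list that was chosen for known induction by ATF4. The E-box letters CACGTG were found for Ass1 and Slc25a13 and for 8.09% of all genes, or 12.3% of the genes compared, and the cAMP response element TGACGTCA for 0 of the 9 members and 2.03% of all genes, or 3.91% of those compared. A match is a description of the letters and not a bound site.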

How the data were processed

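Single-cell suspensions of lung were made into 10x Genomics libraries by the authors. Per the paper and the labels, Cell Ranger mapped the reads to mm10 (GRCm38.p6), to which the CD90.1 sequence had been added, and counts were corrected for ambient RNA with a customized SoupX. Cancer cells were annotated from clusters by CD90.1, with no doublet removal among them. The deposited gene table gives, for each library, the mean CP10k (each column sums to 10000), the number of cells with a UMI and the percent of cells with a UMI. The authors' fold changes, p-values, q-values, ranking and enrichment scores in the deposited tables were not used. The deposited cell table gives the total UMI count, the genes and the percent of mitochondrial UMIs of each cell, and 2 libraries in it that are not among the samples described were not used.

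Ratios were computed as log2((TSF mean + 1)/(CM mean + 1)), with 1 as the pseudocount, and plain ratios are given beside them. Genes were compared where at least 10% of TSF cells or of CM cells held a UMI, and a gene was called at 1.5-fold in either direction. No test was made, because each group has 1 library. Shares were not thinned to equal depth and could not be set beside another cell type, since the values per gene used here are library summaries. The 2 day 16 libraries shared 31 cell barcodes among all cells and 0 among cancer cells. Gene positions are from GENCODE M21 (GRCm38), matched by gene identifier for all 10 members. Named genes were the members and the list genes past 1.5-fold, and the others were chosen after their values were seen. The members and the lists were chosen with earlier results of these data known. Of the listed symbols, Pc, Adss1 and Adss2 did not match the table. The last 2 are listed there as Adssl1 and Adss. The plain ratio, less its median over unchanged genes, was tested on simulated counts with known folds. The simulation had no added spread between cells, and genes with a low CM mean, such as Asl and Cad, were given no fold. The ratio with 1 added was not tested in that way. Alternatives were pseudocounts of 0.1, 0.5 and none, 2 other scalings, shares or levels per cell with a UMI in place of means, other filters, and lines of 1.25-fold and 2-fold. Computation was in Python 3.11.15 (numpy 2.4.6, pandas 2.3.3), intervals came from scipy 1.17.1 and plots from matplotlib 3.10.9.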

Additional observations from a re-analysis of the deposited data

How the results depend on the processing

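With 1 library a group, no spread between animals is known, and the CM shares rest on 29 cells. No paired analysis was possible because each group had 1 library, and no replicate was left out for the same reason. Asl and Cad had higher values in TSF, and Adsl, Asns and Got1 lower ones, under all 8 settings of pseudocount, scaling and measure. A pseudocount cannot change the sign of a ratio. Only the other scalings, the shares and the levels per cell with a UMI could have turned a sign. The range of the log2 ratio was 0.18 to 2.00 for Asl, 0.22 to 1.26 for Cad, -0.91 to -0.30 for Adsl, -0.49 to -0.09 for Asns and -0.83 to -0.01 for Got1. Ass1 (-0.57 to 1.20), Got2, Slc25a12 and Slc25a13 changed sign under 1 setting each.

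The counts past 1.5-fold depended on the pseudocount, which sets how far low genes can move. At 0.1, 7.33% of genes were higher and 17.3% lower, with 2 members higher and 2 lower, and 2 other list genes higher and 22 lower. At 0.5 the genes were 1.45% and 4.47%, members stayed at 0 and 0, and the other list genes were 2 and 9. With none, genes were 15.4% and 29.9%, members 3 and 2, and other list genes 5 and 23. By shares, genes were 10.7% and 12.7%, with 3 members higher and 0 lower, and 6 other list genes higher and 4 lower. The 4 list genes lower by share (Glul, Nars2, Slc25a22 and Uck1) and the 4 lower by mean had 0 in common. The median of the ATF4 list was 0.00395 by share, and by the level per cell with a UMI the medians of the shuttle and the arginine lists turned to -0.00341 and -0.12. By the level per cell with a UMI, genes were 7.07% and 19.4%, members 1 and 1, and other list genes 2 and 23. At a 2-fold line, genes were 0.127% and 0.529% and 0 other list genes were lower. At the lowest fold line, genes were 3.14% and 7.66%, 1 member (Adsl) was lower, and other list genes were 2 and 13. Without ribosomal protein and mitochondrial genes in the total, 1.21% of genes and 1 other list gene were higher, and with the median of all genes subtracted 1 other list gene was higher. A filter at 25% of cells or none, and Wilson intervals, left the counts of members and of other list genes within 1.5 times their values.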

Other observations

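Sets of the deposited collection that hold members were also read, for membership only. The KEGG set for alanine, aspartate and glutamate metabolism holds 7 of the 10 members. Of its 16 genes compared, 0 were at least 1.5-fold higher in TSF and 1, Adss, was lower, with a median log2 ratio of -0.10. Among all genes compared, 0.755% were higher and 1.95% were lower by that rule. The Reactome set for aspartate and asparagine metabolism holds 5 members, which are all of its genes that could be compared, and its median was -0.12. The Reactome urea cycle had only 3 of 10 genes compared, with a median of 0.15. In the larger KEGG pyrimidine set, 1 of 80 genes was higher (Polr2f, an RNA polymerase subunit) and 2 were lower (Pola1, a DNA polymerase subunit, and Upp1, a uridine phosphorylase), with a median of 0.00070. These counts are near the shares among all genes.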
